A study of Mus musculus with 4 samples.

Results

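Calmodulin is the small calcium sensor of animal cells. It binds calcium through loops called EF-hands, changes shape and then switches on kinases, the phosphatase calcineurin, myosins, channels and pumps. In mammals the calmodulin genes Calm2 and Calm3 are known to code for the same protein and are used by nearly all cells, whereas Calml3, Calm4 and Calm5 belong to stratified epithelium. Calml3 is a calmodulin-like protein of epithelial cells that in human cells binds the unconventional myosin Myo10. Calm4 and Calm5 are also known as Scarf and Scarf2, skin calmodulin-related factors of differentiating mouse keratinocytes. The genes described here are Calml3, Calm4, Calm5, Calml4, Calm2 and Calm3, chosen by symbol, and 6 of 6 were found among 54446 named genes of the deposited table.

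RNA was sequenced from 4 libraries of epithelial cells taken from the tongue of C57BL/6 mice and grown in RPMI-1640 with 10% serum. Libraries 3 and 4 are labelled as lacking Otub2 in the whole animal, and Control 1 and 2 as wild type. Otub2 is an OTU-type deubiquitinase. The labels give neither the deleted part of Otub2 nor the number of animals or cultures behind each pair, so a p-value here reflects only how far these libraries vary, possibly for technical reasons. The count columns of libraries 3 and 4 are headed OE, while their titles say KO.

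The titles were followed, and these libraries are called KO-labelled throughout. Otub2 itself was at 19.0 and 24.0 CPM (read counts scaled to a common library total with edgeR's TMM factors) in KO-labelled 3 and 4, against 27.5 and 26.9 CPM in Control 1 and 2. Its log2FC (log2 fold change, KO-labelled over control) was -0.34 (SE 0.302, edgeR adjusted p = 0.485, n = 2 libraries per group), so the count does not check the deletion. Counts on named genes summed to 22719550 and 18911259 in the KO-labelled libraries and to 12185345 and 11548186 in the controls. KO-labelled 3 stood apart: its 18 gland secretory markers summed to 482784 CPM and its 17 cardiomyocyte markers to 25926 CPM. These were 30.4% and 1.63% of its counts on named genes, as TMM-scaled CPM are not shares of a library. The same sums were 31.9 and 82.7 CPM in KO-labelled 4, 13.7 and 99.9 CPM in Control 1 and 11.4 and 117 CPM in Control 2. Keratins of the labelled epithelium were abundant in every library, with Krt5 at 3712 and 8223 CPM in the KO-labelled libraries and 5025 and 4840 CPM in the controls. Krt13, a keratin of the oral suprabasal layers, was at 5287 and 3954 CPM in the KO-labelled libraries and 11445 and 10406 CPM in the controls.

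The members differ in sequence, and 2 sets of sequences are shown. The first is the stretch of 36 bases that codes for the first calcium-binding loop, written 5′ to 3′ from the GENCODE transcripts (release M21, GRCm38), with capitals where a base differs from Calm2.
Calm4: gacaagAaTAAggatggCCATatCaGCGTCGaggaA
Calml3: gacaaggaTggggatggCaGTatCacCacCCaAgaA
Calm2: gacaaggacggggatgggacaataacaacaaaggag
Calm3: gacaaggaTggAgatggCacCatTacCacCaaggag
Within this stretch Calm4 differed from Calm2 at 16 bases, Calml3 at 10 and Calm3 at 7. Over the whole coding sequence Calml3 shared 75.6% of aligned bases with Calm2 and 78.9% with Calm3, and Calm4 shared 58.9% and 61.4%. Calml3 and Calm4 shared 60.7%, so by coding sequence Calml3 was nearer to Calm2 and Calm3 than to Calm4. Calm2 and Calm3 shared 82.7% of their coding bases, and their coding sequences translate to the same protein. Each of these 4 genes could be told from the others by most of its transcript. No stretch of 50 bases of the Calml3 transcripts occurred in a transcript of another gene, and 2.52% of such stretches of Calm3 and 9.72% of Calm2 did, in pseudogenes that held at most 28 counts in any library.

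Calm4 and Calm5 lie side by side and are near copies at their start, which is the reason their promoters are shown. Both are printed as the 300 bases around the RefSeq start, the last 50 of them after it (GRCm38.p6, plus strand), Calm4 at chr13:3837507-3837806 and Calm5 at chr13:3853923-3854222, with the shared block in capitals.
Calm4: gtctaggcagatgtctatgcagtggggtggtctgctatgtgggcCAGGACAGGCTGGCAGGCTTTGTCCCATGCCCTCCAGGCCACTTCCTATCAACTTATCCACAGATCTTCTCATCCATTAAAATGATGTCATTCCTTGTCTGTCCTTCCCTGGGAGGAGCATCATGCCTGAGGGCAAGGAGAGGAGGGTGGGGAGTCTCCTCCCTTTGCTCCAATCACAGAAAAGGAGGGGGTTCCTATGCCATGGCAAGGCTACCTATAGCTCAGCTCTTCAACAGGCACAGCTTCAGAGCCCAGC
Calm5: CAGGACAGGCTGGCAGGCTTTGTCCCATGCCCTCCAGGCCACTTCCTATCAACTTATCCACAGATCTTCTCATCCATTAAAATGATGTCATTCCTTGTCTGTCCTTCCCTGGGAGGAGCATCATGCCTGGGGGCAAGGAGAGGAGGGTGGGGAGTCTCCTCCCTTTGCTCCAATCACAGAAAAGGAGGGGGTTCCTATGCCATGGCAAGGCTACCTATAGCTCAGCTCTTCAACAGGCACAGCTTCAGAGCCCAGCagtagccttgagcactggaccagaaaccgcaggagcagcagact
Within the printed windows the shared block ran over 256 bases and differed at 1, A174G, counted from the first printed base of Calm4 and with the Calm4 base first. The block reaches the first printed base of Calm5 and the last of Calm4, so its full extent was not measured. Its bases lie 44 positions earlier in the Calm5 window than in the Calm4 window. Of 5 motifs searched on both strands (TGANTCA of AP-1, GGAATG of TEAD factors, TATAAA, and CCCGCCC and GGGTGTG of SP and KLF factors), only GGAATG matched in these windows. It lay on the minus strand at bases 133 to 138 of the Calm4 window and 89 to 94 of the Calm5 window, inside the shared block. Matches to GGAATG were found in 14.7% of 32851 promoters of the same length, so its presence is a description of these letters only. In the transcripts, the same 41 stretches of 50 bases were 4.72% of those of Calm4 and 7.26% of those of Calm5. How reads of these stretches were assigned is not given in the sources used here. As Calm4 had far more counts, the Calm5 counts and the ratio of the pair may be uncertain by more than these shares.

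The epithelial members Calml3 and Calm4 were much lower in both KO-labelled libraries, while Calm2 and Calm3 were higher, on the TMM scale. No gene of the table passed the main test, in which edgeR's quasi-likelihood fit called 0% of 21916 genes higher and 0% lower at an adjusted p of 0.05, while an unadjusted p under 0.05 was met by 9.42% in the higher and 15.2% in the lower direction. Both KO-labelled libraries lay below both controls in 33.1% of genes tested and above them in 26.9%. Among the members 3 of 6 lay below (Calml3, Calm4 and Calml4), 2 above (Calm2 and Calm3) and 1 overlapped the controls (Calm5), so the counts alone are near the background and the members are described by their sizes.

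**Figure D1:**
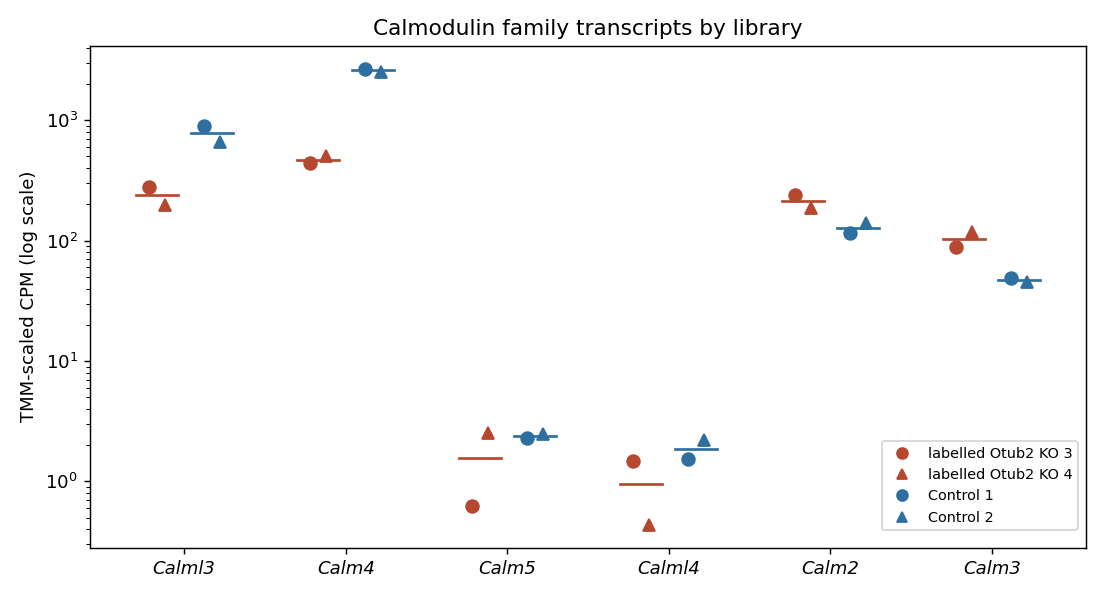
TMM-scaled CPM of the 6 members in each library on a log axis, KO-labelled libraries in red and controls in blue, with circles for libraries 3 and 1, triangles for libraries 4 and 2, and a line at the mean of each pair. Calm4 averaged 471 CPM in the KO-labelled libraries and 2601 CPM in the controls, while Calm3 averaged 103 CPM and 47.1 CPM.

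Calm4 had the largest difference in the family. Calm4 (ENSMUSG00000033765), which GRCm38 places on the plus strand of chromosome 13 from 3837757 to 3838673, had 6329 and 10334 counts in KO-labelled 3 and 4, against 38234 and 34504 counts in Control 1 and 2. Scaled, these were 442 and 500 CPM in the KO-labelled libraries and 2676 and 2527 CPM in the controls. Each pair was close and the groups did not overlap, a 5.52-fold lower level in the KO-labelled libraries. The log2FC was -2.47 (SE 0.36, 95% interval -3.38 to -1.55, edgeR adjusted p = 0.166, n = 2 per group), which did not pass. By unadjusted p Calm4 ranked 44 of 21916 genes, and by size it ranked 5 from the most lowered among 3892 genes of mean CPM at least 50. The gene span of Gm40655, annotated as sense-overlapping, covers all 917 bases of Calm4 on the same strand, and Gm40655 had 5 to 12 counts per library. Its transcripts held no stretch of 50 bases of the Calm4 transcripts, which were shared with Calm5 only. DESeq2 called 0.824% of 16391 genes lower and 6.76% higher, and Calm4 was among the lower genes (log2FC -2.21, adjusted p = 0.000186).

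Calml3 (ENSMUSG00000063130, chromosome 13, 3802896 to 3804316, minus strand) had 3980 and 4121 counts in the KO-labelled libraries, against 12799 and 9040 counts in the controls. The levels were 278 and 199 CPM in KO-labelled 3 and 4, and 896 and 662 CPM in Control 1 and 2. Both KO-labelled values lay below both controls, and within each pair the libraries differed more than they did for Calm4. The log2FC was -1.71 (SE 0.353, 95% interval -2.60 to -0.81, edgeR adjusted p = 0.166), rank 32 from the most lowered among the same 3892 genes. DESeq2 called it lower (adjusted p = 0.0257).

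Calm5 and Calml4 were near the limit of these libraries. Calm5 (chromosome 13, 3854173 to 3854761, plus strand) is a near copy of Calm4 only at its start, with 60.5% of aligned coding bases shared. It had 9 and 52 counts in KO-labelled 3 and 4, against 33 and 34 counts in the controls. KO-labelled 3 was low and KO-labelled 4 was at the level of the controls, so the groups overlapped. The log2FC of -0.59 (SE 0.726, 95% interval -2.43 to 1.26, edgeR adjusted p = 0.615) allows a change in either direction, and without KO-labelled 3 it was 0.10. Calml4 (chromosome 9, 62858080 to 62875921, plus strand), a light chain of a brush-border myosin in intestine, had 21 and 9 counts in the KO-labelled libraries and 22 and 30 counts in the controls. Scaled, KO-labelled 3 at 1.47 CPM was only just below Control 1 at 1.54 CPM, and the log2FC was -1.0 (SE 0.692, 95% interval -2.76 to 0.76, edgeR adjusted p = 0.382). The gene span of an antisense pseudogene, Gm10653, overlaps 9921 bases of that of Calml4, introns included, and had 4 to 22 counts per library. No stretch of 50 bases of the Calml4 transcripts occurred in a transcript of another gene on either strand.

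The ubiquitous genes went the other way on the TMM scale. Calm3 (ENSMUSG00000019370, chromosome 7, 16915379 to 16924114, minus strand) was at 88.3 and 119 CPM in the KO-labelled libraries, against 48.8 and 45.3 CPM in the controls. The groups did not overlap, and the log2FC was 1.14 (SE 0.273, 95% interval 0.44 to 1.83, edgeR adjusted p = 0.166; DESeq2 adjusted p = 0.0522). Calm2 (ENSMUSG00000036438, chromosome 17, 87433412 to 87446935, minus strand) was at 238 and 185 CPM in the KO-labelled libraries, against 115 and 139 CPM in the controls, with a log2FC of 0.73 (SE 0.282, 95% interval 0.01 to 1.45, edgeR adjusted p = 0.2).

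The placement of Calm2 and Calm3 above both controls depended on the scaling, and that of Calml3 and Calm4 below them did not. With upper-quartile scaling Calm2 had a log2FC of 0.26 with overlapping groups. Calm3 had 0.67 without overlap, at 74.1 and 102 CPM in the KO-labelled libraries and 58.2 and 52.5 CPM in the controls. With library size only Calm3 was at 57.4 and 130 CPM in the KO-labelled libraries and 57.6 and 53.9 CPM in the controls, so that its groups overlapped too. The median over all genes tested was 0.09 with TMM, -0.38 with upper-quartile scaling and -0.35 with library size only. Calml3 had -2.18 and -2.21 under the last 2 scalings, and Calm4 -2.93 and -2.88. Both genes lay below both controls under all 4 scalings tried, counting the median-ratio factors of DESeq2. That placement was shared by 48.5% of genes with upper-quartile scaling, 43% with library size only and 31.4% with median-ratio factors, and the opposite one by 10.4%, 9.17% and 29%.

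**Figure D2:**
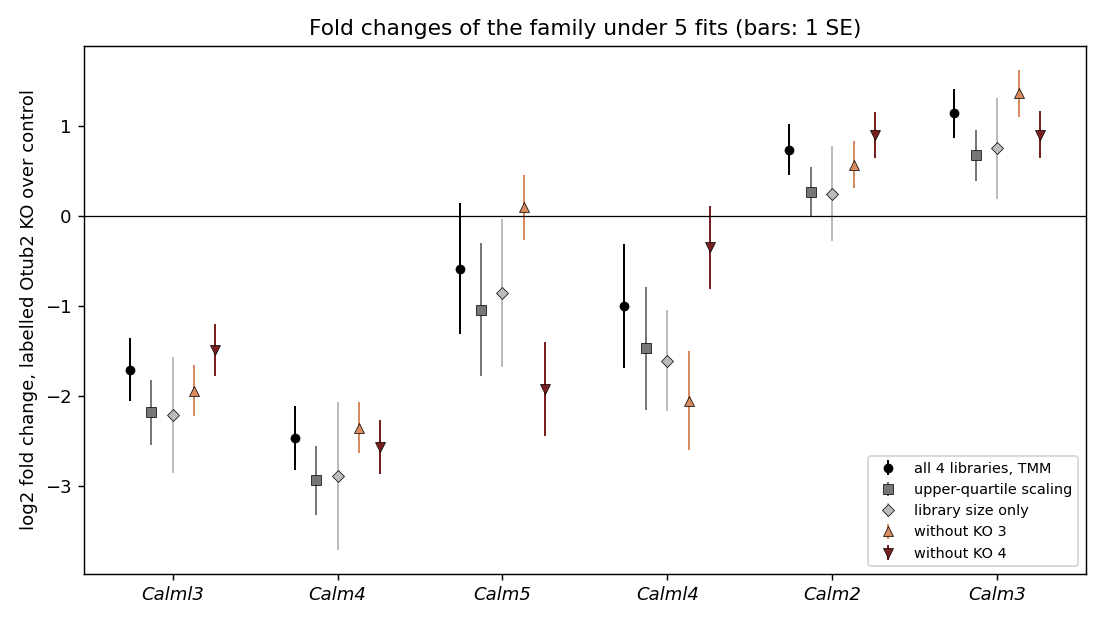
log2 fold change of each family gene, KO-labelled over control, under 5 edgeR fits, with bars of 1 SE. Calm4 ran from -2.93 to -2.35 and Calml3 from -2.21 to -1.49 over these fits, whereas Calm5 ran from -1.92 without KO 4 to 0.10 without KO 3.

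On the TMM scale each KO-labelled library alone gave the same directions for Calml3, Calm4, Calm2 and Calm3. With library size only, Calm2 at 155 CPM and Calm3 at 57.4 CPM in KO-labelled 3 lay between their controls. Without KO-labelled 3, which carries the gland and heart transcripts, the log2FC was -1.94 for Calml3 (adjusted p = 7.56e-10), -2.35 for Calm4 (1.74e-14), 1.36 for Calm3 (2.56e-06) and 0.57 for Calm2 (0.0644). In that fit 22% of 23181 genes were called lower and 18.8% higher. Without KO-labelled 4 the values were -1.49 for Calml3 (adjusted p = 1.91e-06), -2.56 for Calm4 (2.42e-16), 0.90 for Calm3 (0.00307) and 0.90 for Calm2 (0.00262), where 12.7% of 23380 genes were called lower and 22.4% higher. These edgeR fits assume that the lone library varies as little as the 2 controls do, and their adjusted p-values share those controls.

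Ratios within a library do not depend on the scaling between libraries. FPKM, the count scaled to gene length and library total, allowed the genes to be compared with each other. Calm4 took 54.9% and 63.0% of the summed FPKM of the 6 members in KO-labelled 3 and 4, against 79.9% and 82.5% in Control 1 and 2. Calm2 and Calm3 together took 22.6% and 20.3% in the KO-labelled libraries and 2.71% and 3.40% in the controls. Neither share overlapped between the groups. Calml3 had a like share, with 22.3% and 16.2% in the KO-labelled libraries and 17.3% and 13.9% in the controls. Its own level was 3.26-fold lower in the KO-labelled libraries on the TMM scale. Where Calm4 takes less of a total, the shares of the other members rise, so a share does not give a gene's own change. By FPKM Calm2 was at 101 and 137 in the KO-labelled libraries and 89.6 and 109 in the controls. Calm3 was at 22.7 and 53.0 FPKM in the KO-labelled libraries and 22.9 and 21.5 FPKM in the controls. Calm5 and Calml4 took at most 0.494% and 0.0459% in any library.

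**Figure D3:**
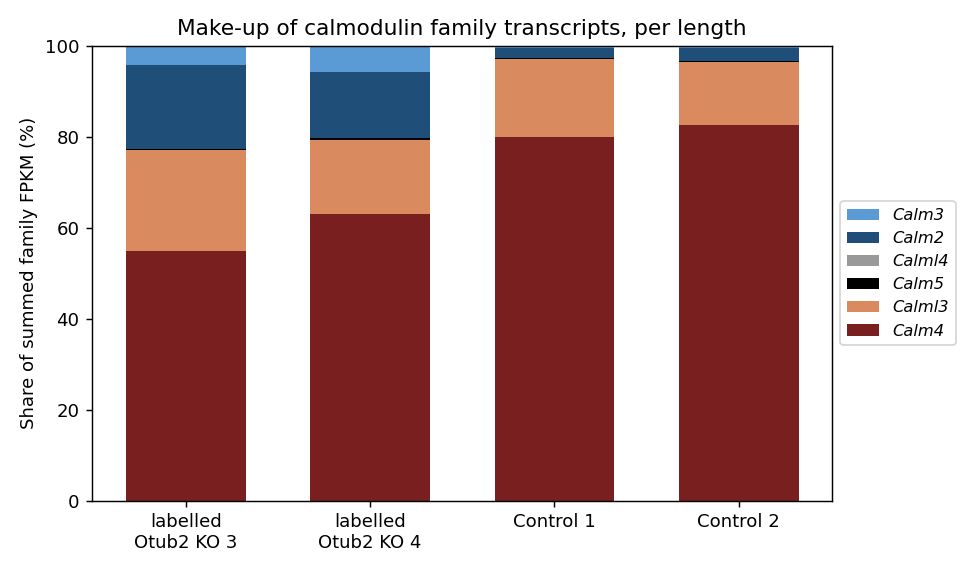
Share of each gene in the summed FPKM of the 6 members, 1 bar per library, KO-labelled libraries on the left. The blue blocks (Calm2 and Calm3) make up 22.6% and 20.3% in KO-labelled 3 and 4, and 2.71% and 3.40% in Control 1 and 2. A smaller share of Calm4 leaves more of a bar to the other members.

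By level per length, Calm4 stood first and Calml3 second of the members in all 4 libraries. Among all 54446 named genes Calm4 ranked 83 and 59 by FPKM in KO-labelled 3 and 4, against 9 and 11 in Control 1 and 2, and Calml3 ranked 215 and 273 in the KO-labelled libraries, against 76 and 96 in the controls. In KO-labelled 3 the order was Calm4 at 300 FPKM, Calml3 at 122, Calm2 at 101 and Calm3 at 22.7 FPKM. In KO-labelled 4 Calml3 at 152 FPKM and Calm2 at 137 FPKM were close neighbours behind Calm4 at 590 FPKM. In Control 1 and 2 Calm4 was at 3325 and 3166 FPKM and Calml3 at 718 and 535 FPKM, followed by Calm2 at 89.6 and 109 FPKM. The ratio of Calml3 to Calm2 and Calm3 together was 0.985 and 0.801 in the KO-labelled libraries and 6.38 and 4.10 in the controls. The same ratio for Calm4 was 2.43 and 3.11 in the KO-labelled libraries and 29.5 and 24.3 in the controls. With 2 libraries a group, the smallest p of an exact permutation test is 0.333, so these ratios are given without a test.

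Calm4 and Calm5 differed widely in level despite the shared block at their start. Per length, Calm4 exceeded Calm5 452-fold and 128-fold in KO-labelled 3 and 4, against 744-fold and 652-fold in Control 1 and 2. The low value of KO-labelled 4 combines 52 counts of Calm5 with the lower Calm4, and the value of KO-labelled 3, also below both controls, rests on 9 counts of Calm5.

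Markers of keratinocytes lay apart as well. On the list for differentiating oral keratinocytes, 18 of 30 were below both controls in each KO-labelled library and 4 were above, beside 33.1% below and 26.9% above over all genes tested. The list's median log2FC was -0.75, against 0.09 over all genes tested. Taken singly, the libraries had a list median of -1.16 (KO-labelled 3) and -0.53 (KO-labelled 4) as a log2 difference from the controls. The summed level of the list was 11132 and 13645 CPM in the KO-labelled libraries and 26145 and 25460 CPM in the controls. Krtdap and Sprr1b, a secreted protein and an envelope precursor of differentiating keratinocytes, had log2FC values of -1.47 (SE 0.32) and -1.43 (SE 0.3), and the transcription factor Grhl3 of -1.07 (SE 0.26). The 4 above, named after their values were seen, were the envelope precursor Ivl (1.63, SE 0.724), Ecm1 (1.57, SE 0.701) and the transcription factors Elf3 (0.87, SE 0.367) and Ehf (0.85, SE 0.424). None of the 30 passed the edgeR test. Of 15 basal markers 8 lay above and 2 below, beside the same 26.9% and 33.1% of all genes tested, with the laminin chain Lama3 at a log2FC of 2.40 (SE 0.516). The 2 below, named after their values were seen, were the basal keratins Krt14 (-0.79, SE 0.596) and Krt15 (-1.13, SE 0.794). The basal list's median differed between the libraries, at 0.16 in KO-labelled 3 and 1.73 in KO-labelled 4. Its summed level was 19860 and 36344 CPM in the KO-labelled libraries and 33207 and 30226 CPM in the controls.

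Krt13 was the largest part of the summed differentiating markers, at 5287 and 3954 CPM in the KO-labelled libraries and 11445 and 10406 CPM in the controls. Relative to that sum, Calm4 stood at 0.0397 and 0.0367 in the KO-labelled libraries and at 0.102 and 0.0993 in the controls. This was a log2 difference of -1.40 with no overlap. For Calml3 the same ratio was 0.025 and 0.0146 in the KO-labelled libraries and 0.0343 and 0.026 in the controls, a log2 difference of -0.64 in which KO-labelled 3 lay just below Control 2. Of 18 fibroblast markers 14 lay above both controls and 0 below, at a sum of 1250 and 1076 CPM in the KO-labelled libraries and 455 and 461 CPM in the controls. Of 11 tested gland markers 4 lay above and 0 below, of 16 cardiomyocyte markers 2 and 0, and of 8 leukocyte markers 1 and 3. Over all genes tested 26.9% lay above and 33.1% below, and the cardiomyocyte and leukocyte counts above the controls were under that share. No marker of the keratinocyte, gland, heart, fibroblast and leukocyte lists was at 0 in all libraries. In bulk RNA, fewer cells of a type and less RNA per cell cannot be told apart, and the part of these markers in the family's values was not tested.

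The gene neighbourhood of Calml3 was examined because Calml3, Calm4 and Calm5 lie within 50 kb on chromosome 13. The annotation has 3 protein-coding genes on the side of lower coordinates and the 5 nearest were taken on the other side, where Calm4 and Calm5 come first. Beyond them, Net1, a guanine nucleotide exchange factor 114 kb away, was at 146 and 266 CPM in the KO-labelled libraries and 151 and 182 CPM in the controls. Its log2FC was 0.31 (SE 0.373) on the TMM scale and -0.15 with upper-quartile scaling. On the other side Asb13, an ankyrin repeat protein, and Fam208b had log2FC values of 0.85 (SE 0.442) and 1.13 (SE 0.33), and Gdi2, a regulator of Rab proteins, of 0.13 (SE 0.263), which turned to -0.34 with upper-quartile scaling. Ucn3, a urocortin hormone, had 4 and 3 counts in the KO-labelled libraries and 11 and 10 counts in the controls (log2FC -1.84, SE 0.519). Among these neighbours Calm4 was the only gene above 5 CPM that was lower in both KO-labelled libraries on the TMM scale, and none passed the edgeR test.

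**Figure D4:**
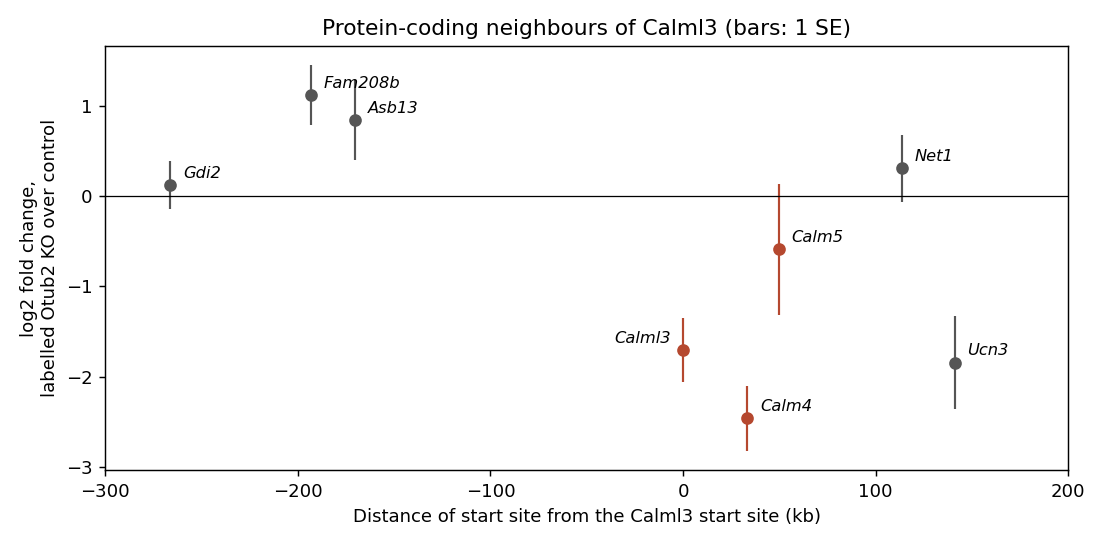
log2 fold change of Calml3 and its tested protein-coding neighbours on chromosome 13, KO-labelled over control on the TMM scale, by distance of their start sites from that of Calml3 in kb, with bars of 1 SE. Calml3 at -1.71, Calm4 at -2.47, Calm5 at -0.59 and Ucn3 at -1.84 lie below 0, the last 2 on at most 52 counts a library, while Asb13, Fam208b, Gdi2 and Net1 lie between 0.13 and 1.13.

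Genes whose profile over the 4 libraries was most like that of Calml3 were sought among 7572 genes of mean CPM at least 20. The measure was the root-mean-square difference of log2 CPM centred on each gene's own mean, which is a description over 4 libraries. The nearest were Cst6, a cystatin (difference 0.103), Lor, the envelope protein loricrin (0.109), Pinlyp (0.124), Rhov, an atypical small GTPase (0.139), Pycard, an inflammasome adaptor (0.139), Aqp3, a water and glycerol channel (0.14), and Crabp2, a retinoic acid binding protein (0.143). Tpt1-ps3, a pseudogene, Teddm3 and the glutaredoxin Glrx completed the 10, with 0.145, 0.157 and 0.159. Cst6, for example, was at 49.0 and 29.0 CPM in the KO-labelled libraries and 154 and 110 CPM in the controls. Calm4 ranked 167 by this measure (0.462).

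Genes of the proteins that calmodulin acts on lay on both sides of the controls. None of them passed the edgeR test, and the counts are set beside the background of 26.9% above and 33.1% below. DESeq2 called 6 of the genes named here higher. Its adjusted p was 1.47e-05 for Kcnn4, 0.000233 for Gap43, 0.00822 for Myo1c, 0.0143 for Camk1, 0.023 for Camta2 and 0.0327 for Camk1g. These 6 genes were named for their small edgeR p in the same libraries. Their number therefore cannot be compared with the 6.76% of all genes that DESeq2 called higher. Of 17 calmodulin-regulated kinases 6 lay above both controls and 3 below, with a median log2FC of 0.55. Camk1, a calmodulin-dependent kinase, was at 46.6 and 20.4 CPM in the KO-labelled libraries and 11.5 and 7.40 CPM in the controls. Its relatives Camk1g and Camk1d had log2FC values of 1.99 (SE 0.544) and -0.65 (SE 0.241). Of 11 tested genes of calcineurin, its regulators and the NFAT factors 3 lay above and 1 below (median 0.49), and the catalytic subunit Ppp3cb had a log2FC of 0.78 (SE 0.274).

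Myosins and IQGAP scaffolds that use calmodulin as a light chain gave 6 of 17 above and 4 below (median 0.54). Myo1c, a myosin of the cell membrane, was at 220 and 304 CPM in the KO-labelled libraries and 81.7 and 93.0 CPM in the controls (log2FC 1.59, SE 0.297, edgeR adjusted p = 0.166). Myo10, the partner of human CALML3 and named here after its value was seen, was at 92.7 and 199 CPM in the KO-labelled libraries and 67.9 and 83.9 CPM in the controls (0.94, SE 0.427, edgeR adjusted p = 0.234). In KO-labelled 4 it lay well above both controls, and in KO-labelled 3 it lay just above Control 2. Of 5 tested small calmodulin-binding proteins 1 lay above, Gap43 (log2FC 3.51, SE 0.76), and 1 below, Marcks (-0.81, SE 0.274), and the median of the 5 was -0.37.

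Among 22 other calmodulin-regulated enzymes, pumps and channels 4 lay above and 4 below (median 0.40). Kcnn4, a potassium channel that senses calcium through bound calmodulin, was at 225 and 63.4 CPM in the KO-labelled libraries and 15.5 and 12.7 CPM in the controls (log2FC 3.35, SE 0.664, edgeR adjusted p = 0.166). KO-labelled 3, the library with gland transcripts, was the higher of the pair, and without it the level in KO-labelled 4 still lay above both controls. The transcriptional activator Camta2 had a log2FC of 1.23 (SE 0.271) and the phosphodiesterase Pde1b of -1.22 (SE 0.463). Over all genes tested the median was 0.09, so 4 of the 5 lists had a median above it, at 0.40 to 0.55, and the small calmodulin-binding proteins had one below it, but genes of mean CPM at least 50 had a median of 0.30. The single libraries differed in these medians, given as log2 differences from the controls. In KO-labelled 3 they were 0.77 for kinases, 0.22 for myosins and 0.46 for channels, and in KO-labelled 4 they were -0.19, 0.41 and -0.55. For the calcineurin list they were 0.19 in KO-labelled 3 and 0.40 in KO-labelled 4. For the small calmodulin-binding proteins they were 0.06 and -1.04, and over all genes tested -0.03 and -0.06. In KO-labelled 4 alone the kinases, the channels and the small calmodulin-binding proteins thus had medians below the controls.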

How the data were processed

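The authors deposited 1 table with a raw read count and an FPKM value per gene and library, per the file headers. The deposited FPKM was checked to be the column's count scaled by its total and by 1 length per gene (largest relative spread of that length 9.2e-15 over 7203 genes above 200 counts). HISAT2, DESeq and GRCh38 are named, per the submitters' processing notes; the last is a human build, and the gene IDs are those of mouse. How reads were counted, with what strand setting and rule for multi-mapping reads, was not given in the sources used here. Of 54446 named IDs, 54409 were found in GENCODE M21 (GRCm38), which gave coordinates. Another 14785 features without a name, with 0.914% to 2.84% of the counts, were left out. Count columns were matched to titles by number, and 0 columns of per-sample values were unused.

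Counts were tested with edgeR 4.0.16 (quasi-likelihood, TMM, filterByExpr, Benjamini-Hochberg over 21916 genes) in R 4.3.3, a fit tested on simulated data. Standard errors come from the F statistic. DESeq2 1.42.0 and limma 3.58.1 (voom) were alternatives, with other scalings, filters and left-out libraries. Log2 ratios of CPM for the likeness measure used CPM + 0.5. Promoters come from RefSeq (GRCm38.p6), with 4 of the 6 members matched (Calm3, Calm4, Calm5 and Calml4). Stretches of 50 bases were searched in all GENCODE transcripts on both strands, and coding identity comes from global alignment with Biopython 1.88.

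Named genes were all members, up to 4 of smallest p per list, the nearest 5 coding genes a side and the 10 most like Calml3. Some genes that this rule names are not reported here. The members and lists were chosen with earlier results of these data known.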

Additional observations from a re-analysis of the deposited data

How the results depend on the processing

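edgeR with TMM called 0 genes higher and 0 lower. With library size only edgeR called 37 higher and 1433 lower, without a filter on low counts 6 and 3, and DESeq2 1108 and 135. Leaving out a library gave 0 to 5243 higher and 0 to 5097 lower; both counts were 0 when a control was left out. DESeq2 called Calml3 (-1.47) and Calm4 (-2.21). Over the left-out libraries the log2 fold changes ran from -1.94 to -1.47 for Calml3, -2.56 to -2.35 for Calm4, -1.92 to 0.10 for Calm5, -2.05 to -0.35 for Calml4, 0.57 to 0.90 for Calm2 and 0.90 to 1.36 for Calm3. Over all settings the adjusted p ran from 7.56e-10 to 0.832 for Calml3 and from 2.42e-16 to 0.832 for Calm4. Under upper-quartile scaling, library size only and a mean CPM filter of 5, directions turned for Gdi2 (-0.34, -0.33 and -0.19) and Net1 (-0.15, -0.028 and -0.014; -0.19 to 0.71 over the left-out libraries). The cause of these differences was not tested. With the mean CPM filter Calm5 and Calml4 were not tested, as fewer genes entered. Depth limits Calm5 and Calml4, at 9 to 52 counts. No paired analysis was possible because the groups share no replicate number.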

Other observations

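Other EF-hand genes related to calmodulin were also counted. Of 17 tested, 8 lay below both controls in both KO-labelled libraries and 2 above, beside 33.1% and 26.9% of all genes tested, with a median log2 fold change of -0.13. Calb2, the calcium buffer calretinin, had 3 and 3 counts in KO-labelled 3 and 4, against 16 and 13 counts in Control 1 and 2. Cabp4, a calcium-binding protein of photoreceptors, had 6 and 6 counts in the KO-labelled libraries and 16 and 13 counts in the controls. Tnnc1, the calcium sensor of heart and slow muscle and also on the cardiomyocyte list, had 10719 counts in KO-labelled 3 and 44 in KO-labelled 4, against 18 and 4 counts in the controls. The edgeR test over all genes called none of them.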
